A study of Mus musculus with 3 samples.

Results

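The genes described here build the cornified envelope and mark late epidermal differentiation. They were taken by symbol from the gene table of the deposited matrices: all Lce and Sprr genes with a number after the family name, without pseudogenes, plus 16 genes listed by name (Lor, Flg, Flg2, Hrnr, Ivl, Cdsn, Asprv1, Casp14, Tgm1, Tgm3, Krtdap, Sbsn, Dmkn, Evpl, Klf4 and Grhl1). This gave 51 of 32285 genes, with 14 Lce1, 6 Lce3, 1 Lce6 and 14 Sprr genes among them. Single-cell 3' RNA libraries of C57BL/6 mouse back skin were made from collagenase I and trypsin digests, with 1 library per group. The control was K5-Cre-er/Piezo1fl/+/Tdfl/+ and the 2-week knockout K5-Cre-er/Piezo1fl/fl/Tdfl/+, both taken at postnatal day 62. The 3-week knockout was K5-Cre-er/Piezo1fl/fl/Tdfl/fl and was taken at day 71, so that its age and its Td alleles differ from the control along with Piezo1, and these cannot be told apart. Tamoxifen, which activates the Cre-er fusion, was given on days 48 to 52 in all groups, the control included. Cre-er was driven by the promoter of keratin 5, a gene of basal keratinocytes, and the labels do not say how many animals each library holds.

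When keratinocytes leave the basal layer they become spinous cells, which secrete Krtdap, Sbsn and Dmkn, and then granular cells. Granular cells deposit envelope proteins under the plasma membrane, where transglutaminases crosslink them: first involucrin and envoplakin, then loricrin, the small proline-rich proteins (Sprr) and the late cornified envelope proteins (Lce). Filaggrin and its relatives bundle keratin, corneodesmosin holds the dead cells together, and the whole becomes the outer barrier of the skin.

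All values below are counts of unique molecular identifiers (UMIs), where 1 UMI stands for 1 captured RNA molecule. UMIs of all cells of a class in a library were summed and scaled to counts per 1000000 UMIs (CPM). Each UMI is a tag from the 3' end, so CPM does not grow with transcript length and levels of different genes can be set side by side. Intervals are exact 95% intervals that cover counting error only. No test between conditions is possible with 1 library per group. A gene is called higher or lower where it was at least 1.5-fold apart after 5 CPM were added to both sides, among genes with at least 50 UMIs and a mean of at least 50 CPM in that class.

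The libraries kept 4912 control, 9585 2-week and 9599 3-week cells, with median depths of 9989, 7506 and 8768 UMIs per cell. Between 17 and 29 barcodes were shared by any pair of libraries. The members took 1.05%, 1.19% and 1.66% of all UMIs. Piezo1, the channel gene named in the labels, stood at 34.7, 27.7 and 15.1 CPM in epithelial cells and at 28.1, 15.3 and 17.6 CPM in granular-like cells. Which Piezo1 exons are floxed is not stated, and 3' tags outside them would still be counted, so these levels check nothing. Cell classes were named from marker genes that exclude all 51 members, and the members were also kept out of the genes used for clustering. Granular-like cells (cluster 11) numbered 74, 213 and 431, which was 2.25% (1.77 to 2.82), 2.52% (2.20 to 2.88) and 6.24% (5.68 to 6.84) of epithelial cells. Their median depth was 57412, 39679 and 29019 UMIs per cell, and members took 6.42%, 5.74% and 7.23% of their UMIs. In spinous-like cells the members took 1.22%, 1.19% and 1.26%, and in basal-like cells 0.268%, 0.292% and 0.329%.

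Most of these genes lie side by side in the genome. On chromosome 3 (mm10), 40 of the 51 members fall within 1253 kb, from 92080271 to 93333570, the region known as the epidermal differentiation complex. Sbsn, Dmkn and Krtdap lie next to each other on chromosome 7 between 30751471 and 30791097. Their Ensembl identifiers are ENSMUSG00000046056, ENSMUSG00000060962 and ENSMUSG00000074199. For 13 members, over 10% of the 60-base words in the last 300 transcript bases also occur in another gene, so that reads could be split: Sprr2a1, Sprr2a2, Sprr2a3, Sprr2b, Lce1a1, Lce1b, Lce1d, Lce1e, Lce1j, Lce1k, Lce3c, Lce3d and Sbsn. Their values are uncertain to that extent.

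Promoters of the Lce1 and Sprr2 families are shown because their members differed from the control in unlike ways. Each sequence is the 80 bases before the RefSeq start on the gene's own strand (GRCm38.p6). Capitals mark a TATA-like word 45 to 15 bases before the start and the 9-base word CTGTCTCAC. The first 4 are Lce1 genes: Lce1a2 (chr3:92670316-92670395, minus strand), Lce1g (chr3:92752339-92752418, minus), Lce1h (chr3:92765066-92765145, minus) and Lce1m (chr3:93019062-93019141, minus). The last 4 are Sprr2 genes: Sprr2d (chr3:92339060-92339139, plus strand), Sprr2e (chr3:92352063-92352142, plus), Sprr2f (chr3:92365107-92365186, plus) and Sprr2i (chr3:92407911-92407990, plus).
Lce1a2: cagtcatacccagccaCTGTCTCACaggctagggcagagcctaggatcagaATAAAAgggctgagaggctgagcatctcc
Lce1g: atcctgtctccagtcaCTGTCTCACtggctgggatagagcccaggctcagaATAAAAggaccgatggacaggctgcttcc
Lce1h: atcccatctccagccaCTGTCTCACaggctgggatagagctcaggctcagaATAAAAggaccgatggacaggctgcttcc
Lce1m: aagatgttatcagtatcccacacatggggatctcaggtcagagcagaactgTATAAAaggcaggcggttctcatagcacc
Sprr2d: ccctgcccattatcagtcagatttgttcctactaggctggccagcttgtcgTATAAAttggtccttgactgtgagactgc
Sprr2e: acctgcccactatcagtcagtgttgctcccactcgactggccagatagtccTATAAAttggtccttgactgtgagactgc
Sprr2f: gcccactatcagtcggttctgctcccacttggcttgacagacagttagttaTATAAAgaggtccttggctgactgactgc
Sprr2i: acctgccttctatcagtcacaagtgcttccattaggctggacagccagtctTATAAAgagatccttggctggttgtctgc

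The word TATAAA stood in that window, on the gene's strand, in 17 of 49 members with a promoter entry (34.7%), against 2.57% of all 27025 genes in the table. Of the 13 Lce1 genes with an entry only Lce1d and Lce1m held it, while it is in all 4 Sprr2 promoters shown. These 4 are the Sprr2 genes called lower in granular-like cells. Sprr2h, Sprr1a and Sprr1b, within 1.5-fold of the control there, held the word too.

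The word ATAAAA, which overlaps the former where another such base follows, stood there in 27 of 49 members (55.1%) against 2.40%. These included 12 of 13 Lce1 genes, Lce1a1 being the exception.

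The 9-base word was searched on both strands within 250 bases before the start. It was found in 9 of 13 Lce1 genes and in no other member, against 0.481% of all genes. Lce1m is one of the 4 Lce1 genes without it, together with Lce1c, Lce1k and Lce1l. Both of these last words were chosen after the sequences were seen.

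An AP-1 type word, TGANTCA, searched on both strands in the same window, was found in 16 of 49 members (32.7%) against 7.82% of all genes. It was in 0 of 13 Lce1 promoters and in all 4 Sprr2 genes shown. Sprr2h, Sprr1a and Sprr1b held it as well, so it does not set the lower Sprr genes apart.

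GGGNGTG, searched in the same way, stood in 6 of 49 members (12.2%) against 28.8%, and TTNCNNAA in 31 (63.3%) against 40.3%.

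AACCNGGTT was in 0 of 49 against 0.278%. A match is only a run of letters.

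Krtdap, Sbsn and Dmkn were higher in spinous-like than in basal-like cells and highest in granular-like cells, in all 3 libraries. Krtdap, a small secreted protein of suprabasal cells, stood at 35.9, 59.3 and 111 CPM in basal-like cells of the control, 2-week and 3-week libraries. It stood at 1934, 3330 and 3302 CPM in spinous-like cluster 5, at 3310, 4527 and 5199 CPM in spinous-like cluster 7, and at 15575, 16980 and 20095 CPM in granular-like cells. The order of these 4 cell groups was the same in each library, while within basal-like cells the 3-week level was 3.09-fold (2.79 to 3.44) the control. Sbsn, a suprabasin secreted by the same cells, followed the same steps, with 83.3, 103 and 146 CPM in basal-like cells and 10672, 9794 and 11429 CPM in granular-like cells. Dmkn (dermokine) was less restricted, at 705, 724 and 803 CPM in basal-like and 5656, 4857 and 6090 CPM in granular-like cells. Evpl, the envoplakin scaffold, spanned a narrower range, with 60.2, 68.0 and 60.6 CPM in basal-like and 261, 238 and 262 CPM in granular-like cells.

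A second group was close to silent before the granular stage. Lor, the loricrin that makes up much of the mature envelope, stood at 7963, 6867 and 9956 CPM in granular-like cells. It was at 18.6, 15.2 and 73.3 CPM in spinous-like cluster 5 and at 19.2, 13.99 and 164 CPM in non-epithelial cells, which should lack it. The Lor values of spinous-like, basal-like and bulge-like cells are thus close to or below those of cells that should lack it, and are read as background. Flg stood at 814, 221 and 547 CPM in granular-like cells, Flg2 at 1168, 819 and 1634, and Hrnr at 542, 390 and 534. All 3, which encode large keratin-binding proteins of one S100-fused family, were at or below 9.51 CPM in both spinous-like clusters. Lce1m led the Lce genes with 2184, 2696 and 4625 CPM in granular-like cells, and Lce1g was the lowest of the Lce1 genes with 87.5, 24.4 and 75.5 CPM. Non-epithelial levels were higher at 3 weeks: Lce1m there was at 4.29, 5.62 and 60.9 CPM, and Krtdap there at 126, 116 and 538 CPM. The higher 3-week levels of Krtdap and Sbsn in basal-like cells and of Krtdap (3.97-fold) and Lor (8.88-fold) in bulge-like cells lie below the summed non-epithelial levels of the same genes. Of the 8185 Krtdap UMIs in 3-week non-epithelial cells 4695 were in Langerhans or dendritic-like cells. The median non-epithelial cell had 142.7 CPM of Krtdap, against 73.3 in basal-like and 143.1 in bulge-like cells. Expression in these classes was not told apart from RNA of other cells.

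**Figure D1:**
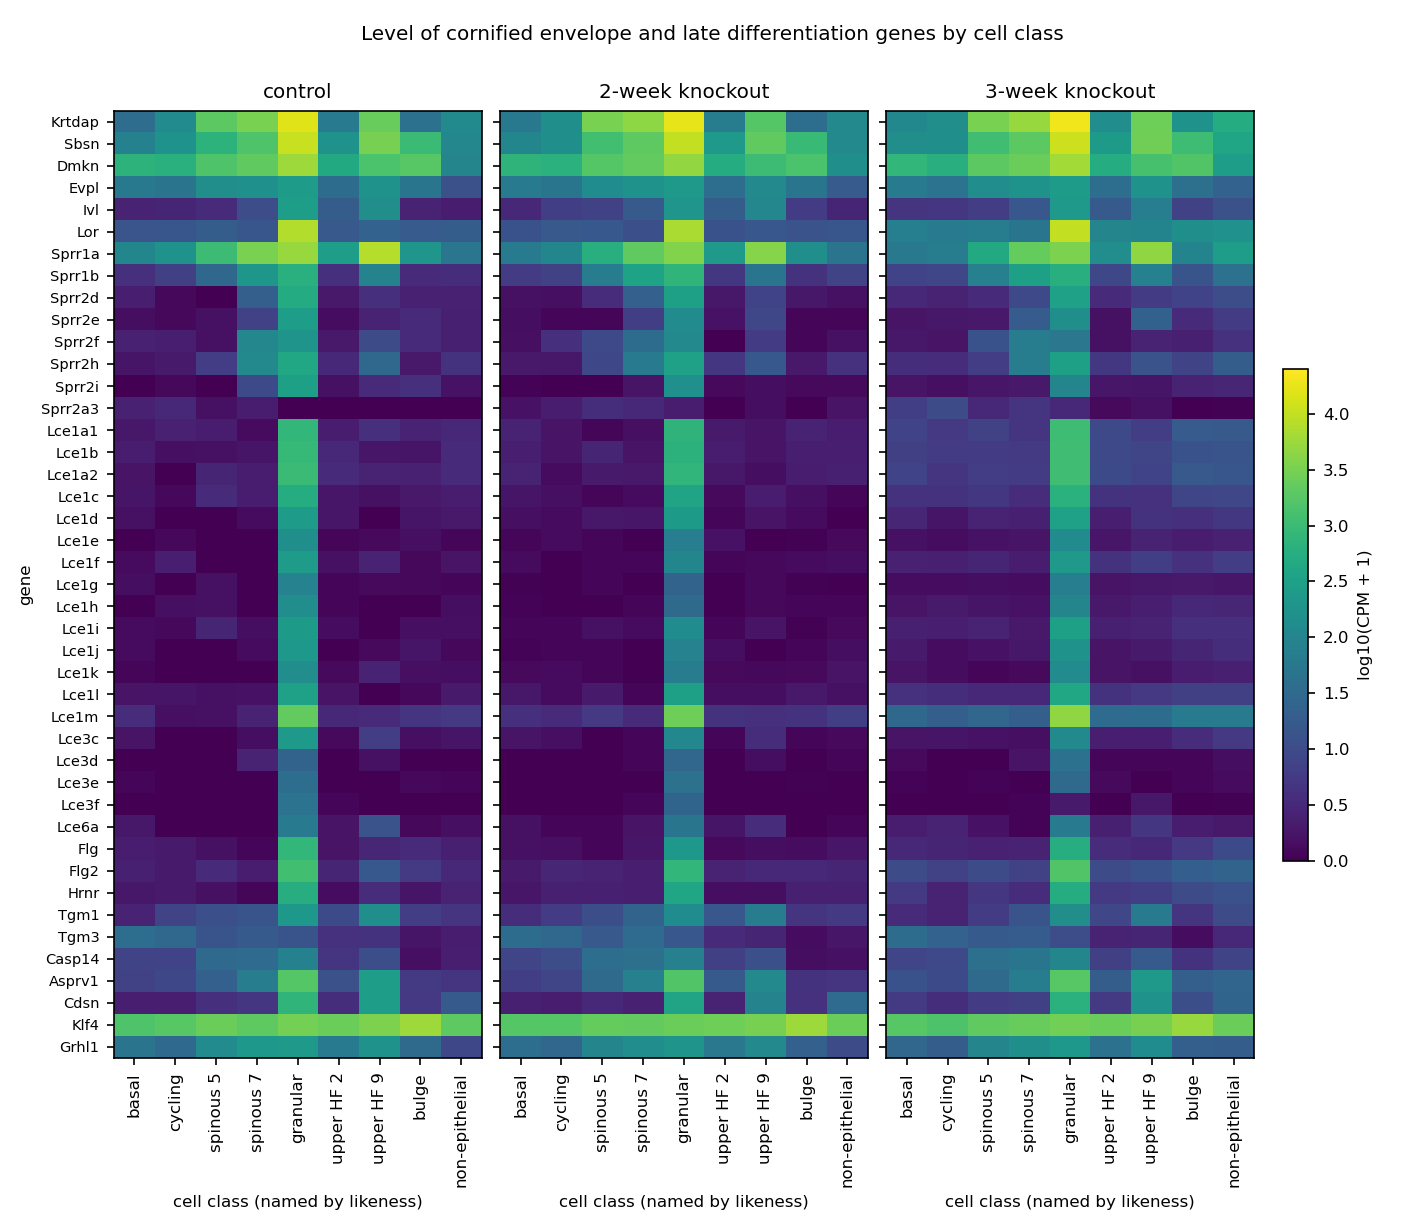
Level of members (rows) by cell class (columns) for each library; colour gives log10 of CPM plus 1. The Lce genes, Lor, Flg, Flg2 and Hrnr light up in the granular-like column, Krtdap, Sbsn and Dmkn already in the spinous-like ones, and Klf4 in every column.

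Some members were found outside the interfollicular layers. Upper hair follicle-like cluster 9, led by Defb6, Cst6 and Krt79, held Sprr1a at 8045, 4053 and 4645 CPM, above the 5196, 3703 and 3466 CPM of granular-like cells in each library. It also held Tgm1, the membrane transglutaminase, at 153, 70.7 and 66.4 CPM, Ivl (involucrin) at 146, 107 and 74.0 CPM, and Cdsn (corneodesmosin) at 288, 92.6 and 176 CPM. Lor there stood at 22.9, 14.7 and 93.7 CPM, Flg at 2.03, 0.467 and 2.24 CPM and Lce1m at 2.32, 3.03 and 34.3 CPM, all close to or below the non-epithelial levels. Transglutaminase, involucrin and Sprr1a transcripts were thus present in this cluster, while Lor, Flg and Lce1m were near background. Klf4, a transcription factor of barrier formation, was in every class, and among the named epithelial classes it was highest in bulge-like cells, at 5687, 5672 and 5324 CPM. Tgm3, the other transglutaminase listed, was highest in basal-like cells at 38.1, 35.1 and 35.2 CPM, and lower in granular-like cells at 12.8, 14.7 and 10.0 CPM. Cdsn also appeared in dermal papilla-like cells, at 70.8, 76.9 and 37.8 CPM. In 2-week sebaceous-like cells Lor read 2253 CPM, but 99.4% of its UMIs came from 1 of 19 cells.

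In granular-like cells 38 of the 51 members passed the level filter. The 13 others were Tgm3, Sprr2a1, Sprr2a2, Sprr2a3, Sprr2b, Sprr2k, Sprr3, Sprr4, Lce3a, Lce3b, Lce3d, Lce3e and Lce3f. Sprr3 had 0 UMIs there in all 3 libraries, which allows up to 0.639, 0.302 and 0.177 CPM. Lce3f stood at 46.8, 25.3 and 1.06 CPM and Lce3e at 38.3, 44.9 and 31.6 CPM.

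Within the granular-like cells the members were spread unevenly over single cells. Cells with Lor below 0.1% of their UMIs numbered 46 of 74 (62.2%) in the control, 147 of 213 (69.0%) at 2 weeks and 189 of 431 (43.9%) at 3 weeks. Cells with Lor at or above 0.1% but all Lce genes together below 0.5% numbered 18 (24.3%), 46 (21.6%) and 166 (38.5%). Cells with Lce at or above 0.5% numbered 10 (13.5%, 6.68 to 23.5), 20 (9.39%, 5.83 to 14.1) and 76 (17.6%, 14.2 to 21.6). These are ranges of a continuum set after the data were seen: 42 of 718 cells had Lor within 2-fold of its limit and 56 had Lce within 2-fold of its limit. With each cell thinned to 10000 UMIs, 28 of 71, 49 of 174 and 148 of 315 cells had at least 10 Lor UMIs, or 39.4%, 28.2% and 47.0%. Thinning left out 3, 39 and 116 shallower cells, and without it the shares were 41.9%, 31.5% and 55.5%.

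Cells rich in Lce were nested within the cells rich in Lor. Of the cells with at least 1000 CPM of summed Lce, 15 of 17 control, 33 of 35 2-week and 123 of 127 3-week cells also had at least 1000 CPM of Lor. In the other direction, 15 of 28, 33 of 66 and 123 of 242 Lor cells also had Lce at that level. Flg cells were nested in the same way, with 12 of 13, 16 of 17 and 66 of 68 also carrying Lor. In contrast Krtdap reached 1000 CPM in 73 of 74, 213 of 213 and 425 of 431 granular-like cells. These are single time points, and no cell was followed in time.

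Other members differed along these ranges. Krtdap stood at 12145, 12974 and 13886 CPM in the Lor-poor cells and at 20261, 22838 and 27446 CPM in the Lce cells. Asprv1, the protease that trims profilaggrin, stood at 824, 569 and 369 CPM in the Lor-poor cells and at 5669, 5619 and 6384 CPM in the Lce cells. Evpl went the other way, from 320, 266 and 316 CPM to 153, 143 and 176 CPM, and so did Grhl1, a grainyhead-like transcription factor, from 268, 208 and 245 to 158, 111 and 150 CPM. Ivl spanned a narrow range, at 310, 181 and 259 CPM in the Lor-poor and 239, 215 and 232 CPM in the Lce cells. Krt10, the keratin of spinous cells and no member, stood at 19209, 16716 and 18887 CPM in the Lor-poor and at 8278, 10463 and 10764 CPM in the Lce cells. The Lce-richest cell of each library gave 19.9%, 43.4% and 51.99% of its UMIs to Lce genes. The 2-week and 3-week cells had 1311 and 881 detected genes and 0 UMIs of Krt1 or Krt10, while the control cell had 3949 genes.

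**Figure D2:**
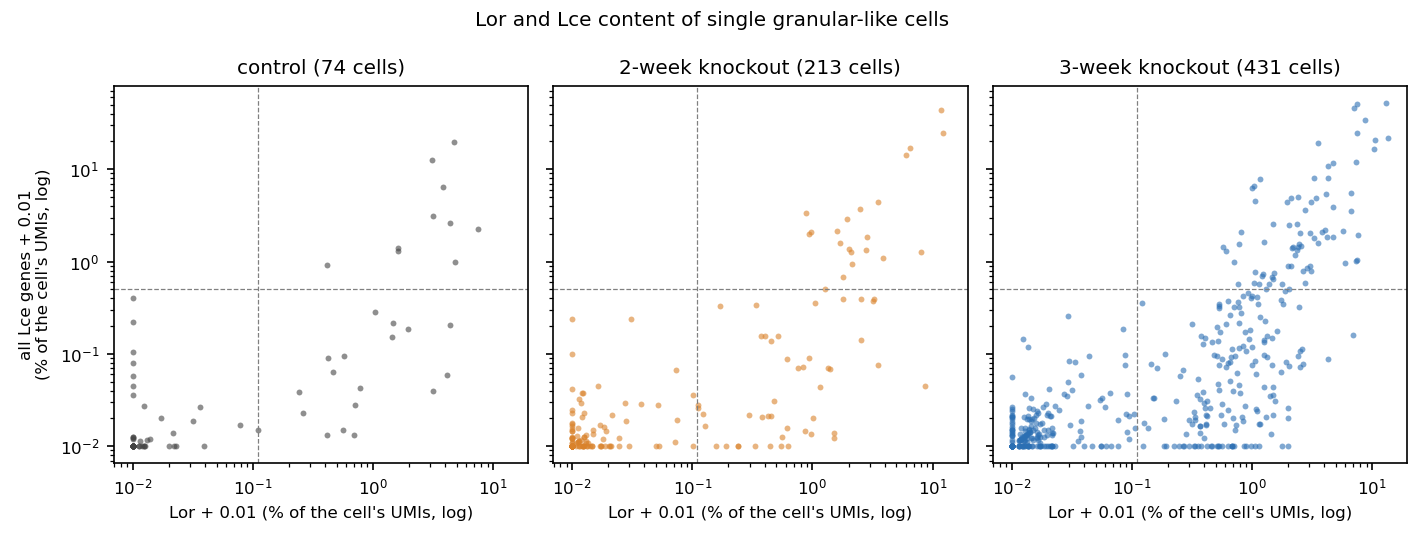
Share of each granular-like cell's UMIs from Lor (x axis, percent plus 0.01, log scale) and from all Lce genes together (y axis, percent plus 0.01, log scale), 1 point per cell; dashed lines mark 0.1% Lor and 0.5% Lce. Nearly all cells above the Lce line lie to the right of the Lor line, and the upper left is almost empty in each library.

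Lce sums rest on very few cells. In the control 2 of 74 granular-like cells held at least 50% of all Lce UMIs, in the 2-week library 3 of 213 and in the 3-week library 8 of 431. The 5 richest cells held 83.5%, 74.5% and 37.0%. Of the 38 members that passed, 23 had over 10% of their UMIs in 1 control cell: 16 Lce genes with Sprr2d, Sprr2e, Sprr2f, Sprr2i, Sprr1b, Flg and Hrnr. The same held for 18 members at 2 weeks, 16 of them Lce genes with Sprr2e and Sprr2i, and for 14 Lce genes at 3 weeks. For these genes the counting intervals do not cover the spread between cells.

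At 2 weeks the members as a group were lower in granular-like cells, both libraries being of the same age. Of the 38 members that passed, 0 were higher and 15 were lower, against 2.64% and 6.84% of all 2573 genes that passed, and 23 lay between. The median log2 ratio over these members was -0.48, against -0.06 over all genes. At a finer clustering (resolution 2) these cells split into granular-like and spinous-like ones, 56 and 18 in the control, 120 and 92 at 2 weeks and 345 and 86 at 3 weeks, so the mix of stages differed between libraries. Its part in the lower values was not tested. The median was -0.21 at resolution 2 and -0.20 with members kept among the variable genes, with 12 of 39 members lower in each. Without the 5 most Lce-rich cells of each library 9 of 31 were lower and 2 higher, with a median of -0.30.

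Flg, the filaggrin precursor gene, stood at 814 CPM in the control, 221 CPM at 2 weeks and 547 CPM at 3 weeks. Its 2-week ratio was 0.271 (0.257 to 0.286) and ranged from 0.263 to 0.402 over 11 alternative settings, including those without the most Lce-rich cells. The 5 cells richest in Flg held 63.7% of its UMIs in the control and 28.4% at 2 weeks, and no setting left cells out by Flg. Flg was lowest at 2 weeks in both stages with Lor: 1074, 509 and 634 CPM in cells with Lor but little Lce, and 2936, 721 and 1723 CPM in the Lce cells. Thinned cells with at least 10 Flg UMIs were 14 of 71 (19.7%), 8 of 174 (4.60%) and 56 of 315 (17.8%). The other members of the family differed less, with ratios of 0.701 (0.677 to 0.726) for Flg2 and 0.720 (0.684 to 0.757) for Hrnr.

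Cdsn stood at 742, 378 and 650 CPM, and its 2-week ratio of 0.509 (0.486 to 0.533) was below the 1.5-fold line in all 11 settings. The Lor-poor cells (543, 211 and 401 CPM) and the Lce cells (1454, 761 and 1157 CPM) had the same order of libraries, and cells with Lor but little Lce were closer, at 732, 642 and 727 CPM. Tgm1 stood at 220, 138 and 149 CPM, with ratios of 0.626 (0.577 to 0.680) at 2 weeks and 0.674 (0.627 to 0.725) at 3 weeks. The 2-week call of Tgm1 was lost in 3 of the 11 settings. Casp14, a caspase of cornification, stood at 84.9, 81.9 and 104 CPM, and Asprv1 at 1742, 1607 and 1792 CPM, both within 1.5-fold at each time.

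The scaffold and early secreted members lay within 1.5-fold at 2 weeks. Ratios were 0.862 (0.852 to 0.873) for Lor, 0.667 (0.622 to 0.716) for Ivl and 0.909 (0.848 to 0.975) for Evpl. They were 1.09 (1.08 to 1.10) for Krtdap, 0.918 for Sbsn and 0.859 for Dmkn. Among regulators, Klf4 stood at 2986, 2564 and 2862 CPM and Grhl1 at 229, 189 and 219 CPM. Ivl lies at the limit, and 4 of the 11 settings called it lower.

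**Figure D3:**
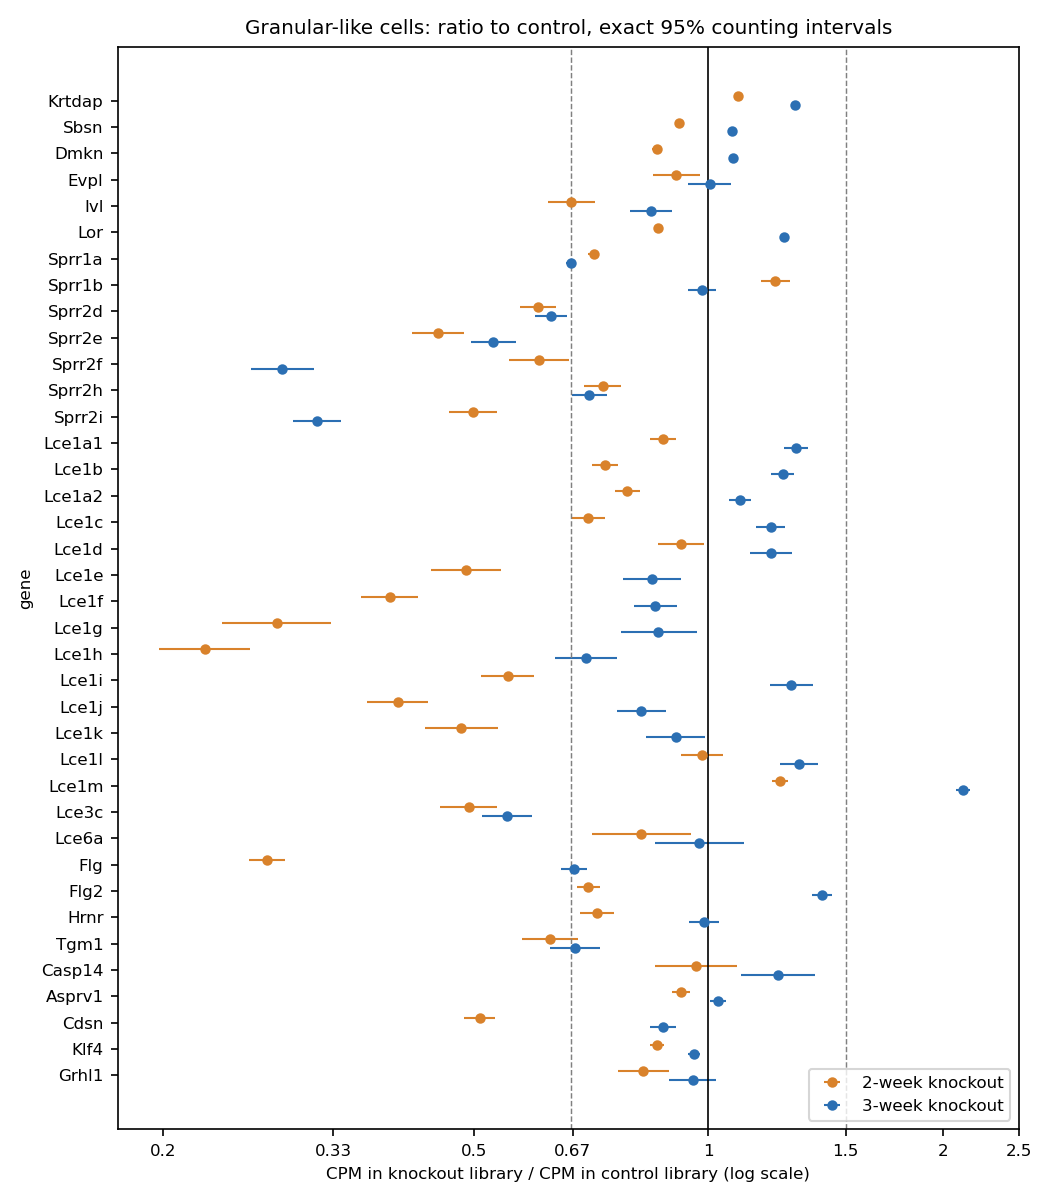
Ratio of CPM in each knockout library to the control in granular-like cells for the 38 members that passed the level filter (log x axis; points with exact 95% counting intervals; dashed lines at 1.5-fold). At 2 weeks 15 points lie left of the lower line and none right of the upper; at 3 weeks the Sprr2 genes Sprr2d, Sprr2e, Sprr2f and Sprr2i and Lce3c stay on the left and Lce1m lies alone on the right.

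Sprr2 genes were lower at both times. Sprr2i stood at 317, 158 and 99.8 CPM, with ratios of 0.499 (0.464 to 0.535) and 0.314 (0.293 to 0.337). Sprr2e stood at 288, 129 and 152 CPM, with ratios of 0.450 (0.416 to 0.486) and 0.530 (0.496 to 0.566). For both genes all 11 settings gave the same call at both times. Sprr2f stood at 192, 116 and 54.5 CPM, with ratios of 0.607 (0.556 to 0.663) and 0.284 (0.259 to 0.312). Sprr2d stood at 515, 311 and 323 CPM, with ratios of 0.604 (0.572 to 0.637) and 0.628 (0.599 to 0.659). Sprr2h, at 441, 322 and 310 CPM, was within 1.5-fold. In all, 4 of the 7 Sprr genes that passed were lower at each time, against 6.84% and 6.06% of all genes, and the same 4. Both comparisons use the same control library. In the Lor-poor cells, where few Lce UMIs fall, the sum of all Sprr2 genes was 1442, 875 and 740 CPM, with the control highest there too. The 2 Sprr1 genes differed from each other: Sprr1a stood at 5196, 3703 and 3466 CPM, and Sprr1b at 609, 742 and 598 CPM.

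Lce1 genes next to each other on the chromosome had like values. At 2 weeks the 7 neighbours Lce1e, Lce1f, Lce1g, Lce1h, Lce1i, Lce1j and Lce1k were lower, while Lce1a1, Lce1b, Lce1a2, Lce1c and Lce1d on one side and Lce1l and Lce1m on the other lay within 1.5-fold. Lce1h stood at 142, 32.2 and 99.1 CPM, with a 2-week ratio of 0.226 (0.197 to 0.259). Without the 5 Lce-richest cells of each library its log2 ratio turned to 0.29, above control, but at 7.86 and 10.7 CPM, under the level filter. The calls for Lce1e, Lce1i, Lce1j and Lce1k were lost there too. That for Lce1i held in 8 of the 11 settings and was also lost at resolution 2 (ratio 0.719). Lce1f stood at 266, 104 and 227 CPM (ratio 0.390, 0.359 to 0.424) and was lower in all 11 settings. Lce1g stood at 87.5, 24.4 and 75.5 CPM (ratio 0.279, 0.237 to 0.328). Its ratio was below the 1.5-fold line in all 11 settings, but without the 5 richest cells it was under the level filter. At 3 weeks none of the 7 was lower, with ratios from 0.696 for Lce1h to 1.28 for Lce1i. Without the 5 richest cells of each library Lce1f (1.73-fold) and Lce1i (6.28-fold) were higher at 3 weeks. Lce1i then stood at 26.3, 17.4 and 166 CPM and passed the level filter only through the 3-week library. Lce1e, Lce1g, Lce1h, Lce1j and Lce1k were under the level filter in this setting and have no call. The cells left out held 83.5% of Lce UMIs in the control and 37.0% at 3 weeks, so leaving them out takes more from the control.

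The remaining Lce1 genes and Lce6a were nearer the control over all cells. Lce1a1 stood at 829, 725 and 1074 CPM, Lce1b at 903, 664 and 1124, Lce1a2 at 1007, 792 and 1104 and Lce1c at 537, 376 and 645. Lce1d stood at 271, 250 and 326 CPM, Lce1l at 323, 317 and 422 and Lce6a at 62.6, 51.3 and 60.9. Each of these 7 genes was lowest in the 2-week library, within 1.5-fold of the control at both times. These values rest on the richest cells, which held more of the Lce UMIs in the control (83.5% in 5 cells) than at 3 weeks (37.0%). Leaving out 5 cells of each library therefore takes more from the control. Lce1a1, Lce1b, Lce1a2, Lce1c and Lce1l were then higher at 3 weeks, from 4.18-fold for Lce1a1 to 11.2-fold for Lce1c. Of these, Lce1c (33.5, 65.2 and 375 CPM) and Lce1l (40.9, 34.9 and 220 CPM) passed the level filter only through the 3-week library. Lce1d and Lce6a were under the level filter in this setting and have no call. At 2 weeks Lce1c (1.95) was higher in this setting. Among the run from Lce1e to Lce1k, Lce1e stood at 153, 74.8 and 129 CPM, Lce1i at 252, 139 and 322, Lce1j at 221, 88.2 and 181 and Lce1k at 143, 69.1 and 130.

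Lce1m differed in the opposite direction. It stood at 2184, 2696 and 4625 CPM, 1.23-fold (1.21 to 1.26) the control at 2 weeks and 2.12-fold (2.07 to 2.16) at 3 weeks, where it was higher in all 11 settings. At 2 weeks 4 of the 11 settings called Lce1m higher, with ratios up to 2.36. Taken as a share of all Lce UMIs Lce1m made up 28.3% in the control, 40.8% at 2 weeks and 43.0% at 3 weeks. Without the 5 richest cells of each library the shares were 29.4%, 55.0% and 53.1%. Among cells with at least 100 Lce UMIs (15, 25 and 64 cells), the median share per cell was 29.9% (quartiles 8.2 to 38.5), 46.1% (36.6 to 73.5) and 57.7% (33.4 to 83.0). The quartile ranges overlap. The run from Lce1e to Lce1k made up 16.4%, 8.04% and 10.8% of Lce UMIs, or 15.7%, 6.49% and 9.29% without the 5 richest cells. The median per cell was 17.8%, 6.59% and 8.998%. Lce1a1 to Lce1d together made up 45.9%, 42.5% and 39.8%. The split at Lce1e and Lce1k was drawn after these values were seen, and reads of Lce1e, Lce1j and Lce1k could be shared with other genes.

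**Figure D4:**
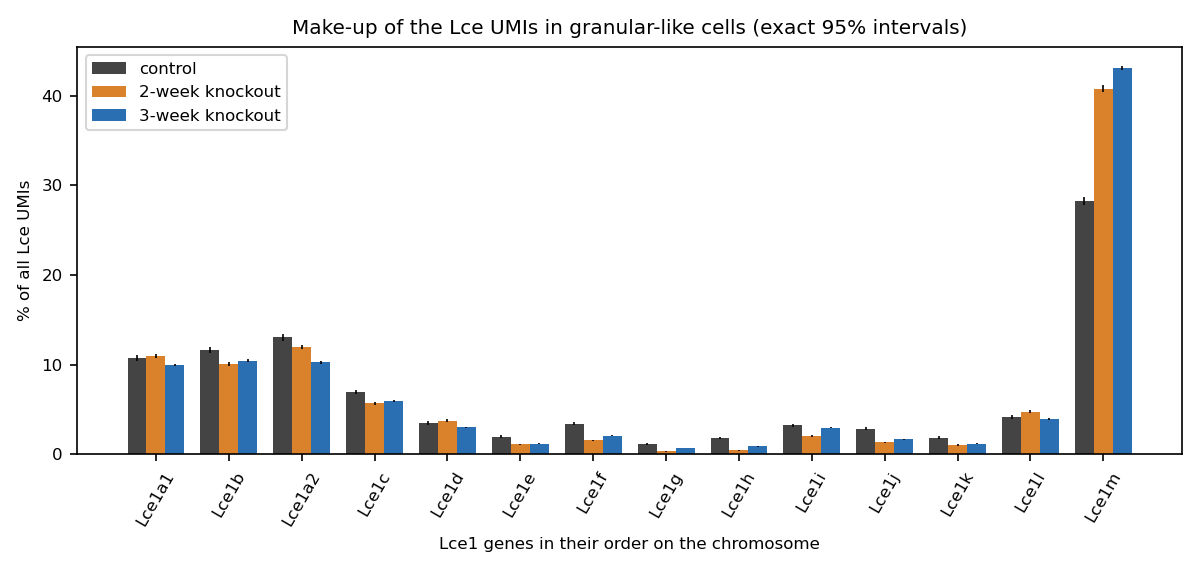
Percent of all Lce UMIs of granular-like cells that came from each Lce1 gene, in chromosomal order, by library (bars, from 0, with exact 95% counting intervals). Lce1m is at 28.3% in the control and at 40.8% and 43.0% in the knockout libraries, and each gene from Lce1e to Lce1k is highest in the control.

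At 3 weeks granular-like cells were near the control for most members. Of 38 members, 1 was higher (Lce1m) and 5 were lower (Sprr2d, Sprr2e, Sprr2f, Sprr2i and Lce3c), against 2.72% and 6.06% of all genes, and 32 lay between. The median log2 ratio was -0.05, as against -0.06 over all genes. Lce3c stood at 228, 112 and 125 CPM, with ratios of 0.492 (0.452 to 0.536) and 0.551 (0.512 to 0.593). Without the 5 richest cells the count of higher members was 10. Lce1c, Lce1i and Lce1l are among them and passed the level filter only through the 3-week library. Both comparisons share the control library.

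Spinous-like cells passed 10 members, and the same 3 were lower at both times: Sprr2h, Sprr1a and Grhl1. The background was 6.04% lower at 2 weeks and 11.8% at 3 weeks, and 0 members were higher against 2.72% and 3.31%. Sprr1a had ratios of 0.493 (0.483 to 0.503) and 0.504 (0.495 to 0.513), and Grhl1 0.612 (0.569 to 0.659) and 0.643 (0.603 to 0.685). The 2 clusters of this class were unevenly filled, cluster 5 with 127, 469 and 647 cells and cluster 7 with 301, 365 and 510. Within cluster 5 Sprr1b (2.27-fold and 2.73-fold), Krtdap (1.72 and 1.71) and Sbsn (1.66 and 1.59) were higher, in 3 of 8 members at each time. The backgrounds there were 2.43% and 2.89%. Sprr1a (0.569 and 0.458) was the 1 lower member there at each time, against 4.74% and 11.1%. Grhl1 was within 1.5-fold in cluster 5, at 130, 99.2 and 100 CPM. With both clusters weighted equally, the class had 1 higher and 2 lower members at 2 weeks and 2 higher and 2 lower at 3 weeks. In cluster 7 Krtdap stood at 3310, 4527 and 5199 CPM, 1.37-fold (1.34 to 1.39) and 1.57-fold (1.55 to 1.60) the control. Of 11 members that passed in cluster 7, 1 was higher (Sprr1b, 1.67-fold) against 2.3% and 4 were lower against 3.95% at 2 weeks: Sprr2f (0.3302), Sprr2h (0.556), Sprr1a (0.647) and Grhl1 (0.658). At 3 weeks 1 was higher (Krtdap) against 3.1% and 2 were lower against 9.91%, Sprr2f (0.643) and Sprr2h (0.594).

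When spinous-like and granular-like cells were pooled, the mix of the classes entered the values, since granular-like cells were 74 of 502, 213 of 1047 and 431 of 1588 suprabasal cells. Of 34 members, 9 were lower (5.71% of all genes) and 1 higher (2.26%) at 2 weeks. The lower ones were Flg (0.340), Lce1f (0.489), Lce1j (0.499), Sprr2f (0.533), Sprr2e (0.561), Sprr2i (0.604), Lce1e (0.613), Lce3c (0.615) and Cdsn (0.635), and the higher one was Lce1m (1.55). At 3 weeks 3 were lower (9.7% of all genes) and 9 higher (3.26%). The lower ones were Sprr2f (0.381), Sprr2i (0.386) and Sprr1a (0.645). The higher ones were Lce1m (2.67), Flg2 (1.76), Lce1l (1.65), Lce1a1 (1.63), Lce1i (1.60), Lor (1.58), Lce1b (1.57), Krtdap (1.52) and Lce1c (1.51). Most of these calls were lost under other clusterings, with 1 of 36 members higher when members were kept among the variable genes and 2 of 36 at resolution 2.

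Sprr1a, a small proline-rich envelope precursor, was lower in several epithelial classes. In basal-like cells it stood at 104, 66.1 and 58.7 CPM, with ratios of 0.638 (0.588 to 0.693) and 0.567 (0.525 to 0.612). It was the 1 lower of 6 members that passed there at each time, against 4.47% and 12.1% of all genes. Krtdap at 2 weeks (3.12%) and Krtdap and Sbsn at 3 weeks (4.31%) were the higher ones, below the summed non-epithelial level. In cycling keratinocytes it stood at 174, 104 and 69.9 CPM (0.599 and 0.401), and in bulge-like cells at 193, 153 and 95.01 CPM (0.790 and 0.492). Sprr1a was the 1 lower of 5 members in cycling cells at each time, against 3.73% and 8.91%, and 0 were higher against 2.74% and 3.96%. In bulge-like cells 0 of 6 members were higher (2.54%) or lower (4.73%) at 2 weeks. At 3 weeks Sprr1a was lower (13.0%), and Lor and Krtdap were higher (5.41%), below the summed non-epithelial level. In upper hair follicle-like cluster 9 the ratios were 0.504 (0.494 to 0.513) and 0.577 (0.568 to 0.587). The control library had the highest value in each of these classes. A further cluster of 70 cells, all from the control, was not assigned to a class and held Sprr1a at 3878 CPM. In non-epithelial cells Sprr1a stood at 52.5, 48.02 and 288 CPM. Langerhans or dendritic-like cells held 2620 of the 4382 UMIs behind the 3-week value, and the median non-epithelial cell had 0. The basal-like, cycling and bulge-like 3-week values lie below that sum, and RNA of other cells was not told apart from expression there.

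Upper hair follicle-like cluster 9 (220, 367 and 469 cells) had lower late differentiation genes in both knockout libraries. Of 12 members that passed, 7 were lower and 0 higher at 2 weeks, against 5.96% and 5.77% of all genes. At 3 weeks 4 were lower and 0 higher, against 9.5% and 3.96%. Cdsn had ratios of 0.322 (0.286 to 0.362) and 0.611 (0.558 to 0.669), and in each library 1 cell held over 10% of its UMIs. Asprv1 stood at 291, 115 and 239 CPM, with ratios of 0.393 (0.352 to 0.438) and 0.821 (0.755 to 0.892), and 1 control cell held 14.7% of its UMIs there. Tgm1 had 0.461 (0.399 to 0.532) and 0.433 (0.378 to 0.496), Ivl 0.730 (0.642 to 0.831) and 0.507 (0.443 to 0.579). The others lower at 2 weeks were Sprr1a, Sprr1b, Evpl and Grhl1. For Sprr1b, too, 1 cell held over 10% of the UMIs in each library. Klf4 stood at 3445, 3206 and 3159 CPM. As in granular-like cells, Cdsn, Tgm1 and Sprr1a had their highest value in the control. The cluster's median depth was 13238, 8783 and 10224 UMIs per cell. Its members had median log2 ratios of -0.62 and -0.21, against -0.06 and -0.09 over all genes. In upper hair follicle-like cluster 2 the medians over 6 members were 0.12 and 0.07, against -0.05 and -0.13. Over 10 members of the whole class they were -0.25 and 0.06, against -0.07 and -0.13.

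**Figure D5:**
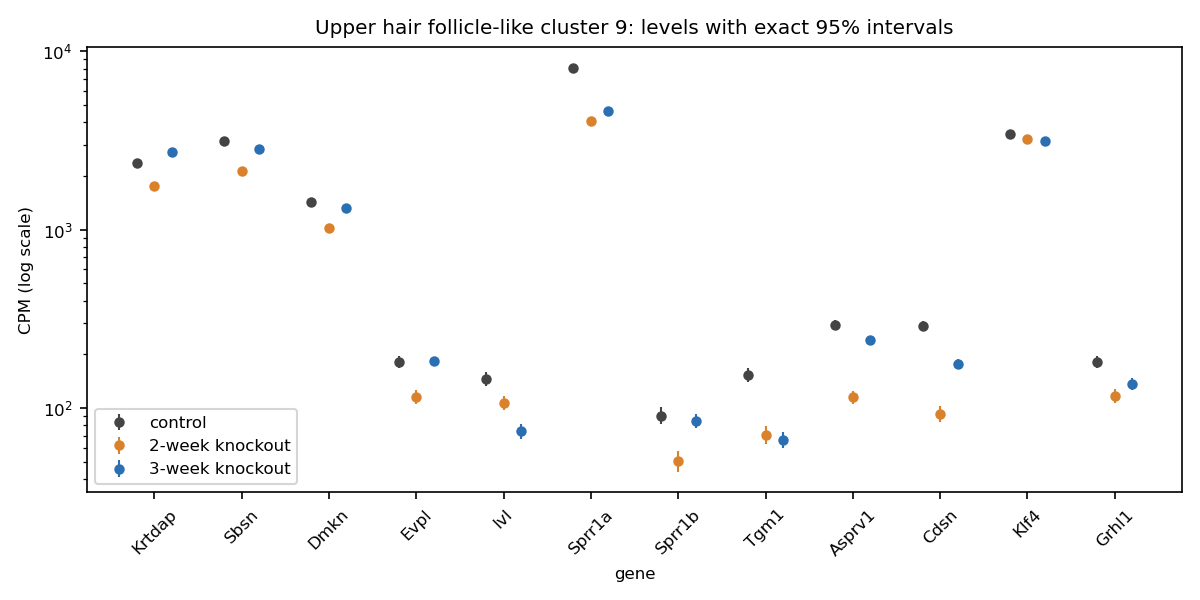
CPM (log scale) of the 12 members that passed the level filter in upper hair follicle-like cluster 9, by library, with exact 95% counting intervals. Cdsn, Asprv1, Tgm1 and Sprr1a are highest in the control, and Klf4 is nearly level across libraries.

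Genes of the same programme that are not members were counted in the same way in granular-like cells, where 6.84% of all genes were lower and 2.64% higher at 2 weeks, and 6.06% and 2.72% at 3 weeks. Of 13 genes for barrier lipids that passed, 3 were lower and 0 higher, with a median log2 ratio of -0.51. They were Aloxe3, an epidermal lipoxygenase (147 to 79.2 CPM), Ugcg, which makes glucosylceramide (356 to 213 CPM), and Nipal4 (77.5 to 47.2 CPM). At 3 weeks 0 of 13 were lower. Of 8 genes of corneodesmosomes and their proteases, 1 was lower at 2 weeks, the kallikrein Klk7 (1531 to 894 CPM), and 0 at 3 weeks. Of 9 other envelope partners, 1 was lower at 2 weeks, Cnfn (cornifelin, 1627 to 993 CPM), and 0 at 3 weeks. Of 2 other genes of the complex, Kprp was lower (415 to 172 CPM) and Crct1 was not (3793 to 2926 CPM). Krt1, 1 of 5 suprabasal keratins, was higher at 2 weeks (2673 to 4296 CPM). Aloxe3, Nipal4, Klk7, Cnfn, Kprp and Crct1 were among the markers that named granular-like cells, and Krt1 among those of spinous-like cells. Their levels are thus not independent of how the cells were named, while Ugcg was no marker.

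Of 15 regulators of differentiation in granular-like cells, 4 were higher and 2 lower at 2 weeks, against 2.64% and 6.84% of all genes. At 3 weeks 2 were higher and 2 lower, against 2.72% and 6.06%. Grhl3, a partner of Grhl1 in barrier formation, stood at 250, 157 and 87.0 CPM, with ratios of 0.629 (0.583 to 0.679) and 0.348 (0.322 to 0.376). Prdm1 stood at 341, 187 and 276 CPM, lower at 2 weeks only by the 1.5-fold rule. Hes1, a Notch target gene, stood at 23.8, 73.3 and 83.0 CPM, with ratios of 3.08 (2.52 to 3.79) and 3.48 (2.87 to 4.26). Ovol1 stood at 176, 270 and 339 CPM and was higher at both times. In spinous-like cells Grhl3 (0.5004 and 0.299) and Prdm1 (0.492 and 0.493) were lower and Hes1 (4.49 and 4.62) higher at both times. The wound keratin Krt16 stood at 880, 767 and 467 CPM in granular-like and 1682, 1116 and 1083 CPM in spinous-like cells. In basal-like cluster 4 Krt16 went the other way, at 73.0, 115 and 138 CPM.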

How the data were processed

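Cells of mouse back skin were measured by 10x 3' v3.1 single-cell RNA sequencing in 3 libraries, 1 per group. Per the submitters' processing notes, Cell Ranger 6.1.2 and the mm10 genome were used. Neither the gene annotation's release nor whether intronic reads were counted is stated. The deposited matrices hold raw UMI counts per gene and cell, without normalization.

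Cells with at least 500 genes and under 15% mitochondrial UMIs were kept, which with removal of 110, 284 and 394 doublets (Scrublet; 2.19%, 2.88% and 3.94%) left 4912 of 5621, 9585 of 11144 and 9599 of 11186 barcodes. The libraries were clustered together (scanpy 1.11.5, leidenalg 0.10.2) with 2000 variable genes, members left out, 30 principal components, 15 neighbours and resolution 1, giving 33 clusters. Clusters were named from marker genes, needing 3 detected markers and a lead of 0.5 in mean z score over the next class. For spinous-like and granular-like clusters the lead was taken over the classes other than these 2. No lead of granular over spinous, or the reverse, was needed. These naming limits were set after the clusters were seen. Spinous-like cells fall in 2 clusters, and different ones hold most of the class in different libraries. UMIs were summed per class and library and scaled to CPM. Intervals for levels are exact Poisson, for shares Clopper-Pearson and for ratios exact conditional, all 95%, covering counting error only. With 1 library per group no test between conditions was made. Members, gene lists and limits were chosen with earlier results of these data known. Genes named are the 16 members listed by name, Lce and Sprr members that passed the level filter, and at most 4 genes of each other list, those farthest from the control. The summing and calling steps were tested on simulated data. Alternatives covered the mitochondrial limit, clustering, level filter, added CPM, per-cell means, non-epithelial subtraction and the richest cells.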

Additional observations from a re-analysis of the deposited data

How the results depend on the processing

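Each count of members is given as higher or lower by 1.5-fold. In granular-like cells at 2 weeks (0 higher and 15 lower as reported) the higher count was 1 with members kept among the variable genes, 2 at resolution 2, 1 without the most Lce-rich cell of each library and 2 without the 5 richest. The lower count was 9 without the 5 richest cells and 12 with members kept and at resolution 2. At 3 weeks (1 and 5) the higher count was 5 with the mean of per-cell CPM, 2 without the level filter, 6 without the richest cell and 10 without the 5 richest, and the lower count was 9 after subtracting non-epithelial levels. In pooled suprabasal cells at 2 weeks (1 and 9) the higher count was 0 with members kept, 0 at resolution 2, 2 without the richest cell and 3 without the 5 richest, and the lower count 14 with members kept, 4 with Krt1 or Krt10 at 1% and 5 without the 5 richest. At 3 weeks (9 and 3) the higher count was 1 with members kept, 2 at resolution 2 and 18 with per-cell means, and the lower count 7 with members kept and 5 at resolution 2. Lce1h at 2 weeks in granular-like cells reversed to 0.29 on the log2 scale without the 5 richest cells, where it was under the level filter. The cause of these shifts was not tested. The settings without the richest cells and the equal weighting of the spinous-like clusters were chosen after seeing the data. No paired analysis was possible because each group has 1 library. Genes under the level filter were too thinly counted for a call. A few cells hold most Lce UMIs, so that Lce values vary with the cells caught.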
